A study of Homo sapiens with 8 samples.

Results

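The genes described here are 35 genes of cholesterol and fatty acid synthesis, chosen by symbol from 19414 genes in the deposited tables. They cover the sterol pathway from acetyl-CoA to cholesterol, the control of that pathway by the SREBP transcription factors, sterol transport, and the making of fatty acids. Total RNA was sequenced from U2OS, an established human osteosarcoma line, in 4 genotypes with 2 libraries each. The genotypes were WT, MYC O/E (cells overexpressing MYC, here MYC), Zab, and Zab + MYC O/E (here Zab+MYC). Zab stands for Zαβ, a name generally used for the part of ADAR1, an RNA-editing enzyme, that binds left-handed nucleic acids. The labels give no vector, promoter, clone, dose or time for either factor, and no agent other than these. The design asks how MYC changes transcription with and without Zab.

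Cells make cholesterol from acetyl-CoA through mevalonate, isoprenoid diphosphates, squalene and lanosterol. The same acetyl-CoA, made in the cytosol from citrate or acetate, feeds fatty acid synthase, whose saturated product is then elongated, desaturated and joined to glycerol. SREBP-2, the product of SREBF2, is known mainly for the sterol genes and SREBP-1, the product of SREBF1, mainly for the fatty acid genes. SCAP carries both precursors to the Golgi for cleavage when sterols are low, and the INSIG proteins hold them in the endoplasmic reticulum when sterols are high. MYC is a transcription factor that binds E-box sequences and is known for genes of growth and biosynthesis.

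Exon tags, the reads counted in exons of coding genes, ran from 686991.5 to 1326166.5 per library and made up 60.6% to 76.1% of all tags, lowest in Zab and highest in MYC. The labels fitted the factors they name: MYC stood at 72.5 and 94.8 CPM in WT, 1237 and 1290 with MYC, 230 and 194 with Zab, and 707 and 705 with both. ADAR stood at 264 and 270 CPM in WT, 247 and 230 with MYC, 6003 and 6198 with Zab, and 1068 and 1019 with both, so that each factor was lower in Zab+MYC than in the line that carried it alone. CPM, counts relative to the library total, were scaled between libraries by TMM. Of 14 osteoblast and mesenchymal markers, TWIST1 was at 0 in every library, and SP7, COL1A2 and IBSP had tags in no more than 2. Their summed level was 10240 to 10440 CPM in WT, 5325 to 5478 in MYC, 8612 to 9004 in Zab and 7657 to 7784 in Zab+MYC, most of it VIM. Adipocyte markers, 9 genes, summed to 3.59 to 12.2 CPM, with ADIPOQ and FABP4 at 0, and leukocyte markers, 6 genes, to 5.35 to 11.5 CPM, with CD3E at 0. Hepatocyte markers, 8 genes with ALB, APOH and TTR at 0, summed to 121 to 124 CPM in WT, 7.14 to 11.2 in MYC, 50.9 to 56.9 in Zab and 24.8 to 29.1 in Zab+MYC, nearly all of it SERPINA1. Epithelial markers, 6 genes, summed to 41.6 to 44.5 CPM in WT, 2.80 to 4.36 in MYC, 12.8 to 12.9 in Zab and 5.84 to 8.51 in Zab+MYC. These sums and the exon share move with the groups compared below, and their part in the results was not tested. In bulk RNA, fewer cells of a type and less RNA per cell cannot be told apart.

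The 2 libraries of a group resembled each other closely. Over genes with at least 10 tags in the pair, a chi-square test of the tags found no difference beyond counting noise in MYC (p = 0.71), Zab+MYC (p = 0.6), Zab (p = 0.31) or WT (p = 0.089). Over genes with at least 1000 tags the Zab pair (p = 0.0068) and the Zab+MYC pair (p = 3e-05) did differ in the same chi-square test of tags, and the MYC and WT pairs did not (p = 0.23 and p = 0.083). The labels do not say whether a group comes from more than 1 culture, so the p-values below measure mainly counting error and not the spread between cultures. With 2 libraries against 2, an exact permutation test of a single value cannot go below p = 0.333, and the tests below draw on a spread pooled over all genes. A gene is called higher or lower where limma gave a Benjamini-Hochberg adjusted p under 0.05 over all 9673 genes tested. Of the 35 genes, 33 had enough tags to be tested. The other two were IDI1, which isomerises isopentenyl diphosphate, at 4.90 to 10.6 CPM, and TM7SF2, a sterol reductase, at 0 to 5.74 CPM. Log2 differences were taken after adding 2 CPM to each value, and so come out smaller than the true change for low genes.

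Promoter sequence was at hand for 31 of the 35 genes, from RefSeq on GRCh38.p14, and for all but ACAT2, FDFT1, SQLE and FASN. Shown are 5 genes that later stand for opposite directions under MYC: SCD and ACLY, which were higher, and FADS2, SREBF2 and HSD17B7, which were lower. Each stretch lies within 250 bases before the gene's start, reads 5′ to 3′ on the gene's strand and leaves out bases that are annotated as untranslated region. Capitals mark CCAAT, its reverse complement, and an SRE-like TCACNCCAC.
SCD, chr10:100346983-100347123, plus strand: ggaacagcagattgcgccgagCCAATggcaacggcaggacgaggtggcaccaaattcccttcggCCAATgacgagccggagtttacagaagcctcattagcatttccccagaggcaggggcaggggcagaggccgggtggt
ACLY, chr17:41919023-41919272, minus strand: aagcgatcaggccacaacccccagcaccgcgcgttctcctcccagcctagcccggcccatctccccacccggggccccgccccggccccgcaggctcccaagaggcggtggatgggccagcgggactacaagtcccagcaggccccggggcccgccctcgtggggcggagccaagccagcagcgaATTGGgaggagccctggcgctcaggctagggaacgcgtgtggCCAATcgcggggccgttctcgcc
FADS2, chr11:61816149-61816202, plus strand: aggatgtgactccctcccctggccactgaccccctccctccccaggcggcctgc
SREBF2, chr22:41832855-41833078, plus strand: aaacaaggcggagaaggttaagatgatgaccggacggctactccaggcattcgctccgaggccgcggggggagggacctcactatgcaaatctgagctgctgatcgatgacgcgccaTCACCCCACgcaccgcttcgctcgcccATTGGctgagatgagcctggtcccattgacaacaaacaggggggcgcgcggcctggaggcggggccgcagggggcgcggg
HSD17B7, chr1:162790452-162790701, plus strand: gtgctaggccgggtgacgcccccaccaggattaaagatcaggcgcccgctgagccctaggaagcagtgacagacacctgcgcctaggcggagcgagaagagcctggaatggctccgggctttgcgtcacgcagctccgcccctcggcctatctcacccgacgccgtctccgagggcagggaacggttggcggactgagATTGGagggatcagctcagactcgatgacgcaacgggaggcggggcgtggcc

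The strings below were searched on both strands of the 250 bases before the start, and none of them contains another. The E-box CACGTG was in 3 of the 31 windows (9.68%), those of SC5D, SCAP and INSIG1, against 6.46% of 27305 windows of all genes. The SRE-like string TCACNCCAC was in 1 of 31 windows (3.23%), that of SREBF2, against 0.868%. CCAAT, the string known for the factor NF-Y, was in 17 of 31 (54.8%) against 33% of all windows, and the GC box GGGCGG was in 27 of 31 (87.1%) against 42.2%. The 27305 windows cover every symbol of the promoter set, more than the 19414 genes of the deposited tables, and were not limited to the 9673 tested. Whether the shares here differ from those of the tested genes was not tested. None of the stretches shown holds CACGTG, which says only that these letters are not in these windows. A match is a description of letters and not a site.

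Per kilobase of transcript, the gene of highest mean level in WT was FDPS, which makes farnesyl diphosphate, at 76.5 ± 17.6 CPM per kb (SD, n = 2). FADS2, the delta-6 desaturase of polyunsaturated fatty acids, followed at 74.0 ± 0.325, and ACAT2, which condenses acetyl-CoA units in the cytosol, at 65.2 ± 0.444. The first 2 of these do not differ beyond the spread of FDPS. In MYC the order changed: FASN, fatty acid synthase, led at 104 ± 3.08 CPM per kb, with ACAT2 at 85.2 ± 10.9 and SCD, the delta-9 desaturase of monounsaturated fatty acids, at 81.7 ± 2.64, and the last 2 overlap. FADS2 was 18th of the 35 there, at 10.9 ± 1.68. In Zab the leading genes were FDFT1, squalene synthase, at 60.5 ± 0.508 and FDPS at 60.2 ± 14.5, which overlap. In Zab+MYC FASN led again, at 98.9 ± 0.153. At the low end IDI1, TM7SF2, SC5D, STARD4, NPC1 and GPAM each had a mean under 4 CPM per kb in all 4 groups.

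**Figure D1:**
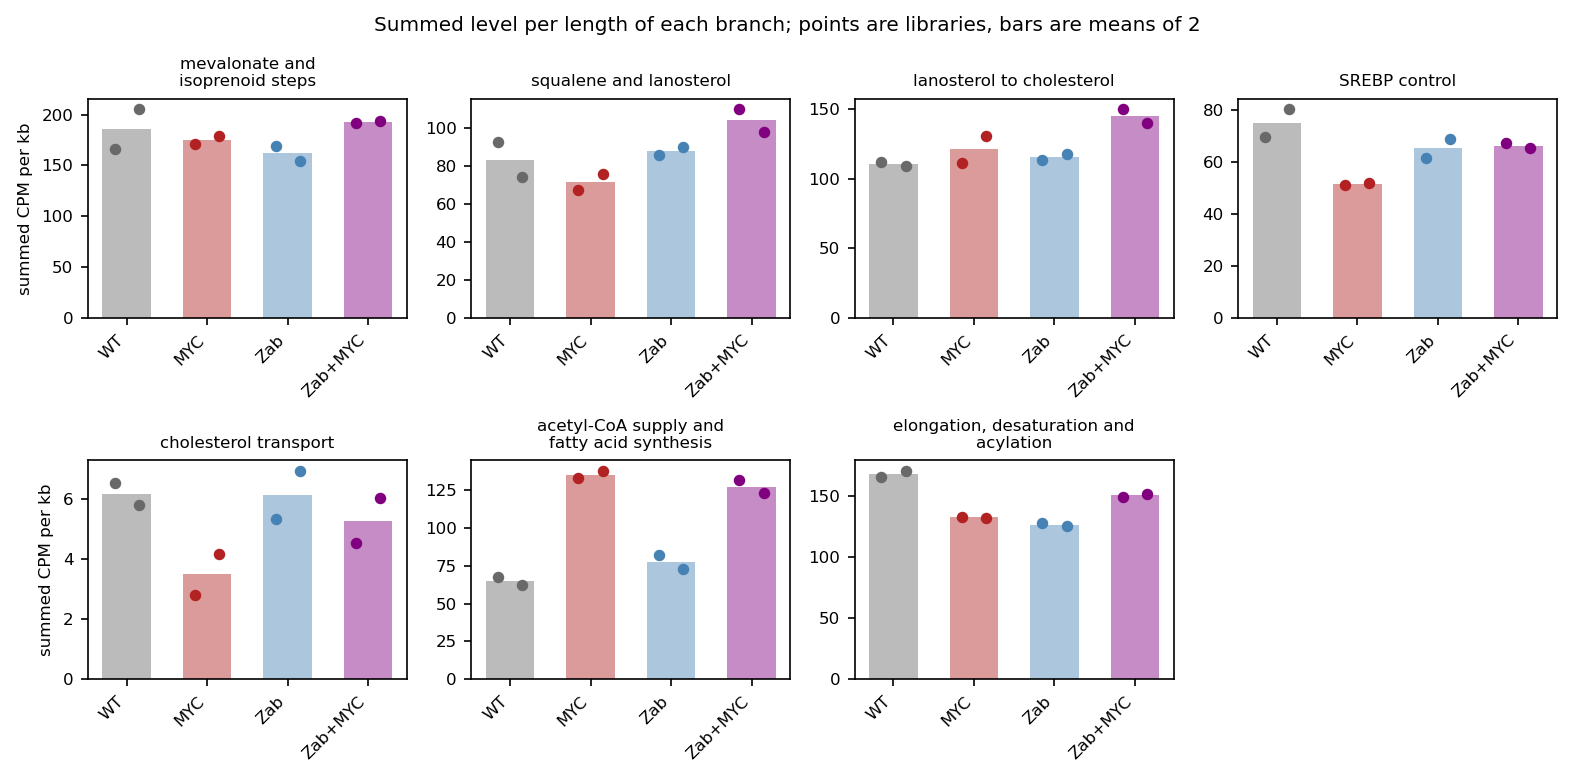
Summed level per length (CPM per kb, y axis from 0) of the 7 branches in the 4 genotypes, with bars for means of 2 libraries and points for libraries. Acetyl-CoA supply and fatty acid synthesis lies at 62.1 to 82.2 in WT and Zab and at 123 to 138 in MYC and Zab+MYC, while SREBP control is lowest in MYC at 51.3 and 52.0.

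The plot of branch sums shows where the pathway as a whole moved. The branch that makes fatty acids (ACLY, ACSS2, ACACA and FASN) summed to 67.8 and 62.1 CPM per kb in WT, 133 and 138 with MYC, 82.2 and 73.1 with Zab, and 132 and 123 with both. Both MYC-overexpressing genotypes lay above both others, and FASN made up most of this sum. The SREBP control genes summed to 69.5 and 80.4 in WT, 51.3 and 52.0 with MYC, 61.8 and 69.0 with Zab, and 67.2 and 65.4 with both, so that MYC alone stood below the rest. Mevalonate and isoprenoid steps summed to 154 to 205 CPM per kb over all 8 libraries, and the WT range of 166 to 205 covered that of MYC and overlapped that of Zab. Squalene and lanosterol summed to 92.3 and 74.0 in WT, 67.2 and 75.6 with MYC, 85.4 and 89.7 with Zab, and 110 and 97.9 with both. Lanosterol to cholesterol summed to 112 and 109 in WT, 112 and 131 with MYC, 114 and 118 with Zab, and 149.9 and 140 with both. In both of these branches the Zab+MYC libraries lay above the other 6. Elongation, desaturation and acylation summed to 165 and 170 in WT, above all other libraries. It stood at 132.4 and 131.9 with MYC, 128 and 125 with Zab, and 149 and 152 with both. Cholesterol transport summed to 6.55 and 5.79 in WT, 2.81 and 4.17 with MYC, 5.34 and 6.94 with Zab, and 4.55 and 6.02 with both. In transport, too, the MYC libraries lay below the rest. The 35 genes together took 0.238% and 0.235% of exon tags in WT, 0.256% and 0.264% with MYC, 0.221% and 0.22% with Zab, and 0.294% and 0.285% with both. FASN alone took 16.7% and 14.9% of those tags in WT and 32% and 32.2% in MYC.

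MYC against WT asks which of these genes differ with overexpressed MYC in the absence of Zab. Genes of the pathway differed in both directions: FASN, ACLY, ACACA, SCD, ELOVL6 and GPAM of the fatty acid branches and ACAT2, SQLE, CYP51A1, NSDHL and DHCR7 of the sterol branches were higher, while FADS1, FADS2, both SREBF genes, INSIG2, FDFT1, HSD17B7 and ACSS2 were lower. Of the 33 genes tested, 11 were called higher, where 27.8% of all 9673 genes were, and 8 were called lower, where 30.4% of all genes were. These shares, 33.3% and 24.2%, lie near those over all genes, so the counts say little of the pathway, and the sizes and the branches carry the description. The median log2 difference was -0.20 over the 33 genes and -0.04 over all genes.

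In fatty acid synthesis 3 of 4 genes were higher and 1 was lower. FASN (chromosome 17, bases 80036214 to 80056112, hg19, minus strand) stood at 379 and 338 CPM in WT, 857 and 893 with MYC, 468 and 408 with Zab, and 830 and 828 with both. All 4 libraries with overexpressed MYC lay far above the other 4. The gene was 2.44-fold above WT in MYC (log2 1.28 ± 0.070 SE, adjusted p = 9.4e-27). ACLY, ATP citrate lyase, which makes cytosolic acetyl-CoA from citrate, stood at 30.9 and 42.4 CPM in WT, 88.7 and 88.0 with MYC, 58.1 and 39.8 with Zab, and 83.2 and 61.7 with both. It was 2.36-fold higher in MYC (log2 1.24 ± 0.20, adjusted p = 2.3e-07), and of its Zab libraries 1 lay within the range of WT and 1 above it. ACACA, acetyl-CoA carboxylase, which makes malonyl-CoA, was 1.53-fold higher (53.1 ± 2.48 against 82.5 ± 5.04 CPM, adjusted p = 0.0038). ACSS2, which makes acetyl-CoA from acetate, went the other way. It stood at 29.0 and 19.6 CPM in WT, 6.07 and 5.55 with MYC, 20.1 and 24.5 with Zab, and 14.6 and 12.1 with both. Its level was 3.32-fold lower in MYC (log2 -1.73 ± 0.35, adjusted p = 1.9e-05), so the 2 cytosolic sources of acetyl-CoA moved in opposite directions.

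Of the genes that modify fatty acids or join them to glycerol, 3 were higher and 2 lower. SCD (chromosome 10, bases 102106990 to 102124583) stood at 164 and 165 CPM in WT, 437 and 418 with MYC, 163 and 144 with Zab, and 332 and 329 with both. It was 2.58-fold above WT in MYC (log2 1.37 ± 0.099, adjusted p = 2.6e-20). ELOVL6, which elongates saturated and monounsaturated chains, stood at 24.6 and 27.0 CPM in WT, 74.7 and 92.0 with MYC, 48.8 and 30.6 with Zab, and 55.0 and 69.5 with both. It was 3.06-fold higher in MYC (log2 1.61 ± 0.22, adjusted p = 2e-09), and no library with overexpressed MYC overlapped one without. GPAM, the mitochondrial acyltransferase that starts glycerolipid synthesis, stood at 10.1 and 5.83 CPM in WT, 20.1 and 27.8 with MYC, 8.61 and 6.12 with Zab, and 8.76 and 7.80 with both. It was 2.63-fold higher in MYC (log2 1.40 ± 0.39, adjusted p = 0.0017) and high in that group alone among the 4.

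FADS2 and FADS1, the delta-6 and delta-5 desaturases of polyunsaturated fatty acids, lie head to head on chromosome 11 and were both lower. FADS2 (61583876 to 61634826, plus strand) stood at 226 and 227 CPM in WT, 29.0 and 36.9 with MYC, 146 and 143 with Zab, and 121 and 135 with both. The MYC libraries stood far below all others. At 6.59-fold lower (log2 -2.72 ± 0.14, adjusted p = 2.7e-27) this was the largest difference among the 33 genes in this comparison. FADS1 (61567101 to 61584475, minus strand) stood at 238 and 257 CPM in WT, 106 and 92.4 with MYC, 174 and 190 with Zab, and 158 and 143 with both, in the same order of groups. It was 2.48-fold lower in MYC (log2 -1.31 ± 0.12, adjusted p = 1.9e-15). Their transcript models overlap by 600 bases on opposite strands, and the labels and headers do not say if counting used strand, so reads of that stretch cannot be told apart. Per length, SCD was 0.425 and 0.424 times FADS2 in the WT libraries and 8.64 and 6.63 times FADS2 in the MYC libraries.

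**Figure D2:**
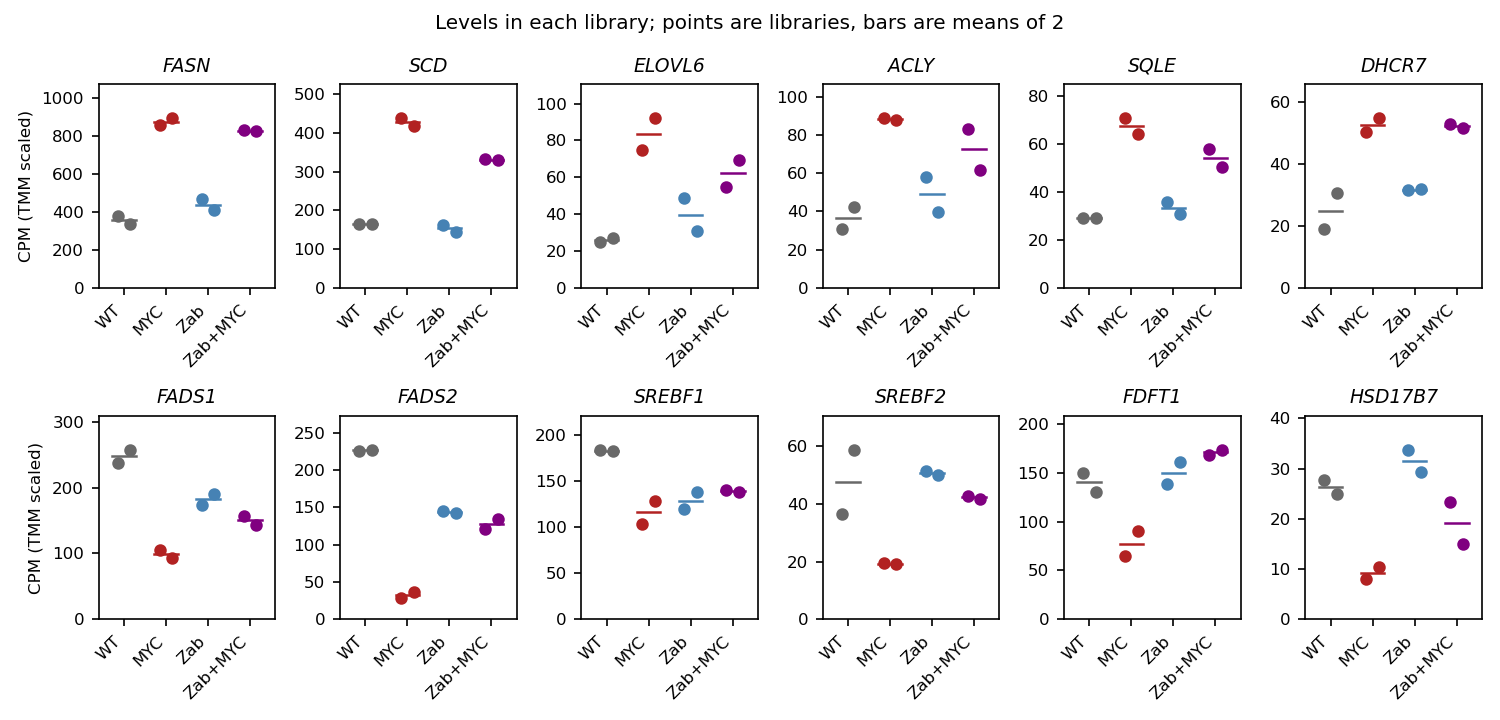
CPM (TMM scaled, y axes from 0) of 12 genes in the 4 genotypes, with points for libraries and bars for means of 2. FASN, SCD, ELOVL6, SQLE and DHCR7 are high in MYC and Zab+MYC, whereas FADS2 falls from 226 and 227 CPM in WT to 29.0 and 36.9 in MYC and stands at 121 and 135 in Zab+MYC.

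In the sterol pathway, single steps differed and the early steps mostly did not pass the test. SQLE, squalene epoxidase, a rate-limiting step, stood at 29.0 and 29.1 CPM in WT, 70.5 and 63.8 with MYC, 35.9 and 30.6 with Zab, and 57.9 and 50.3 with both, with no overlap between libraries with and without overexpressed MYC. It was 2.22-fold higher in MYC (log2 1.15 ± 0.22, adjusted p = 7e-06). DHCR7, which makes cholesterol from its last precursor, stood at 18.9 and 30.7 CPM in WT, 50.4 and 54.7 with MYC, 31.6 and 31.8 with Zab, and 53.0 and 51.7 with both. It was 2.08-fold higher in MYC (log2 1.06 ± 0.24, adjusted p = 0.00011). CYP51A1, the lanosterol demethylase, was 1.72-fold higher (50.6 ± 12.3 against 87.3 ± 6.60 CPM, adjusted p = 0.00025). Also higher were ACAT2, 1.38-fold (98.0 ± 0.667 against 136 ± 5.24 CPM, adjusted p = 0.0051), and NSDHL, a sterol decarboxylase, 1.46-fold (26.7 ± 2.01 against 39.9 ± 4.20 CPM, adjusted p = 0.043). ACAT2 overlaps TCP1 by 615 bases on the opposite strand. From start to end, introns included, SREBF1, NPC1, IDI1, TM7SF2 and ACACA also overlap a gene on the opposite strand. Those overlaps span 103, 339, 320, 6 and 16736 bases.

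Of the sterol enzymes, 2 were lower. FDFT1, squalene synthase, the step that commits isoprenoids to sterols, stood at 150 and 130 CPM in WT, 64.5 and 90.8 with MYC, 139 and 161 with Zab, and 168 and 174 with both. The MYC libraries lay below all the others. It was 1.81-fold lower in MYC (log2 -0.85 ± 0.14, adjusted p = 2.4e-07), while SQLE, the next enzyme of the pathway, was higher. HSD17B7, a sterol ketoreductase, stood at 27.8 and 24.9 CPM in WT, 7.94 and 10.3 with MYC, 33.7 and 29.4 with Zab, and 23.4 and 14.9 with both. It was 2.56-fold lower in MYC (log2 -1.36 ± 0.32, adjusted p = 0.00017). HSD17B7 and FDPS have near-identical pseudogene copies, so their counts are uncertain. The other sterol genes tested were not called: HMGCS1, MVK, PMVK, MVD and FDPS of the mevalonate and isoprenoid steps, LSS, which forms lanosterol, and LBR, MSMO1, EBP and SC5D of the last branch. Their log2 values ran from -0.84 (MVK, adjusted p = 0.077) to -0.12 (LSS, adjusted p = 0.59). Other settings called 3 of them lower: MVD with edgeR, with library totals and on the deposited scale (log2 -0.68, -0.75 and -0.69, adjusted p = 0.043, 0.032 and 0.048), FDPS with library totals and on the deposited scale (-0.42 and -0.35, adjusted p = 0.015 and 0.044), and MVK with library totals (-0.93, adjusted p = 0.049).

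Among the control genes, 3 of 5 were lower. SREBF2 (chromosome 22, bases 42229109 to 42303309) stood at 36.6 and 58.8 CPM in WT, 19.6 and 19.0 with MYC, 51.6 and 50.2 with Zab, and 42.8 and 41.8 with both. It was 2.27-fold below WT in MYC (log2 -1.18 ± 0.24, adjusted p = 2.1e-05), where the MYC libraries stood below all others. SREBF1 stood at 184 and 182 CPM in WT, 104 and 128 with MYC, 119 and 138 with Zab, and 140 and 138 with both. It was 1.57-fold lower in MYC (log2 -0.66 ± 0.13, adjusted p = 1.4e-05), and all 6 libraries that carry a factor lay below WT. INSIG2 was 1.81-fold lower (26.0 ± 0.756 against 14.7 ± 8.97 CPM, adjusted p = 0.021). SCAP (log2 -0.09, 95% interval -0.47 to 0.30) and INSIG1 (0.01, interval -0.66 to 0.67) were not called. Of the transport genes, STARD4, a cytosolic sterol carrier, and NPC1, which moves cholesterol out of lysosomes, had log2 values of -0.63 and -0.76 (adjusted p = 0.14 and 0.083), and NPC1 was called lower with library totals (-0.86, adjusted p = 0.047).

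Some of these calls were fragile. NSDHL ended without any 1 of the WT and MYC libraries (log2 0.48 to 0.69, adjusted p 0.051 to 0.19), INSIG2 without WT replicate 1, WT replicate 2 or MYC replicate 2 (log2 -0.81, -0.88 and -0.24), and GPAM without WT replicate 2 or MYC replicate 2 (1.09 and 1.22). NSDHL, INSIG2 and ACACA also ended with DESeq2 (adjusted p = 0.17, 0.19 and 0.054), NSDHL with library totals (0.12) and on the deposited scale (0.067), INSIG2 with no filter (0.1) and per transcript length (0.097), and ACAT2, NSDHL, INSIG2 and GPAM where the libraries of WT and of MYC were each summed and counted as 1 sample (adjusted p 0.052 to 0.19).

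Zab against WT addresses Zab without overexpressed MYC, though MYC itself stood at 230 and 194 CPM in Zab against 72.5 and 94.8 in WT. With TMM few of these genes differed: FADS2, FADS1 and SREBF1 were lower and FASN was slightly higher. No gene of the sterol pathway was called with that scaling. Of those, 2 had an unadjusted p under 0.05 by limma, ACAT2 and FDPS, both lower in Zab with adjusted p of 0.14 and 0.089, and neither edgeR nor DESeq2 called a sterol gene. That is 1 of 33 higher, where 13.1% of all genes were, and 3 lower, where 11.3% were. The medians were -0.06 over the 33 genes and 0 over all genes. On the deposited scale, where the median of all genes was -0.51, the calls were 0 higher and 15 lower of the 33 and 251 higher and 4767 lower of all genes, against 1271 and 1092 with TMM. Of the sterol pathway, these lower calls took in MVD, SC5D, EBP, LBR, FDPS, ACAT2, LSS, CYP51A1 and FDFT1 (log2 -1.10 to -0.44). Directions in this comparison are thus relative to the median gene. The sources used here do not say what sets the deposited scale between libraries, or whether the dm6 genome listed beside hg19 stands for added fly material.

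The desaturases fell together again, by less than with MYC. FADS2 was 1.56-fold lower in Zab (log2 -0.64 ± 0.14, adjusted p = 0.00039), from 226 and 227 CPM to 146 and 143. FADS1 was 1.35-fold lower (log2 -0.44 ± 0.12, adjusted p = 0.004) and SREBF1 1.42-fold lower (log2 -0.51 ± 0.13, adjusted p = 0.0019). FASN was 1.22-fold higher with TMM (log2 0.29 ± 0.070, adjusted p = 0.0011) and lower on the deposited scale (log2 -0.255, adjusted p = 0.0017). SCD did not differ beyond its error with TMM (log2 -0.10, 95% interval -0.30 to 0.10). The largest differences that missed the threshold with TMM were those of INSIG1 and MVK. INSIG1 stood at 20.2 and 17.5 CPM in WT and 10.8 and 9.79 in Zab (log2 -0.76 ± 0.33, adjusted p = 0.088). MVK stood at 6.31 and 8.48 CPM in WT and 10.8 and 17.1 in Zab (log2 0.74 ± 0.42, adjusted p = 0.2). On the deposited scale SCD and INSIG1 were called lower (log2 -0.64 and -1.23, adjusted p = 9.9e-08 and 0.0015).

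With DESeq2 the calls of FASN, SREBF1 and FADS1 ended (adjusted p = 0.066, 0.077 and 0.092). They also ended without Zab replicate 1 (log2 0.19, -0.40 and -0.38), and FASN and FADS1 without WT replicate 2 (0.21 and -0.38), while SCAP was called without WT replicate 2 or Zab replicate 1 (0.69 and 0.65) and ACLY without Zab replicate 2 (0.67). MVD was called lower without Zab replicate 1 (-0.999) and on the deposited scale (-1.10), and ELOVL6 higher without Zab replicate 2 (0.885) and with replicate number as a block (0.55, adjusted p = 0.049).

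Zab+MYC against MYC addresses Zab where MYC is overexpressed. Of the genes called lower in MYC against WT, FADS2, FADS1, FDFT1, HSD17B7, SREBF2 and ACSS2 were higher here and SREBF1 and INSIG2 were not called. MVK, mevalonate kinase, and FDPS were also higher. SCD and GPAM, both high in MYC, were lower. The 2 comparisons share the MYC libraries, so a high or low MYC library alone would give opposite values in them. In all, 8 of 33 genes were higher, where 11.8% of all genes were, and 2 were lower, where 8.14% were. The median was 0.29 over the 33 genes and -0.002 over all genes. On the deposited scale, where the median of all genes was -0.31, the calls were 4 higher and 8 lower of the 33, and 575 higher and 2947 lower of all genes against 1146 and 787 with TMM.

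FADS2 rose 3.74-fold (log2 1.90 ± 0.14, adjusted p = 6.1e-18), from 29.0 and 36.9 CPM to 121 and 135, which is still below the WT libraries. FADS1 rose 1.51-fold (log2 0.60 ± 0.12, adjusted p = 0.00012). FDFT1 rose 2.20-fold (log2 1.14 ± 0.14, adjusted p = 7.4e-10) to 168 and 174 CPM, above all 6 other libraries. SREBF2 rose 2.08-fold (log2 1.06 ± 0.24, adjusted p = 0.00069) to 42.8 and 41.8 CPM, within the range of WT. SREBF1 was not called (log2 0.26 ± 0.13, adjusted p = 0.16).

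MVK stood at 4.20 and 2.38 CPM in MYC and 18.0 and 12.1 in Zab+MYC, with 10.8 and 17.1 in Zab and 6.31 and 8.48 in WT, so that the libraries with Zab held the higher values. It rose 3.22-fold over MYC (log2 1.69 ± 0.42, adjusted p = 0.0017). HSD17B7 and ACSS2 rose 1.87-fold and 1.96-fold (log2 0.90 ± 0.32 and 0.97 ± 0.35, adjusted p = 0.032 and 0.039), and FDPS 1.35-fold (80.8 and 85.3 to 121 and 105 CPM, adjusted p = 0.038). SCD fell 1.29-fold (log2 -0.37 ± 0.099, adjusted p = 0.0043) and GPAM 2.50-fold (log2 -1.32 ± 0.39, adjusted p = 0.01), to the level it had in WT. FASN was not called (log2 -0.08, 95% interval -0.22 to 0.06), nor were ELOVL6 (-0.41, interval -0.85 to 0.03), SQLE (-0.30, interval -0.74 to 0.14), CYP51A1 or DHCR7. On the deposited scale FASN, ELOVL6 and SQLE were called lower (log2 -0.41, -0.73 and -0.62), and edgeR also called ELOVL6 lower (-0.47, adjusted p = 0.031).

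**Figure D3:**
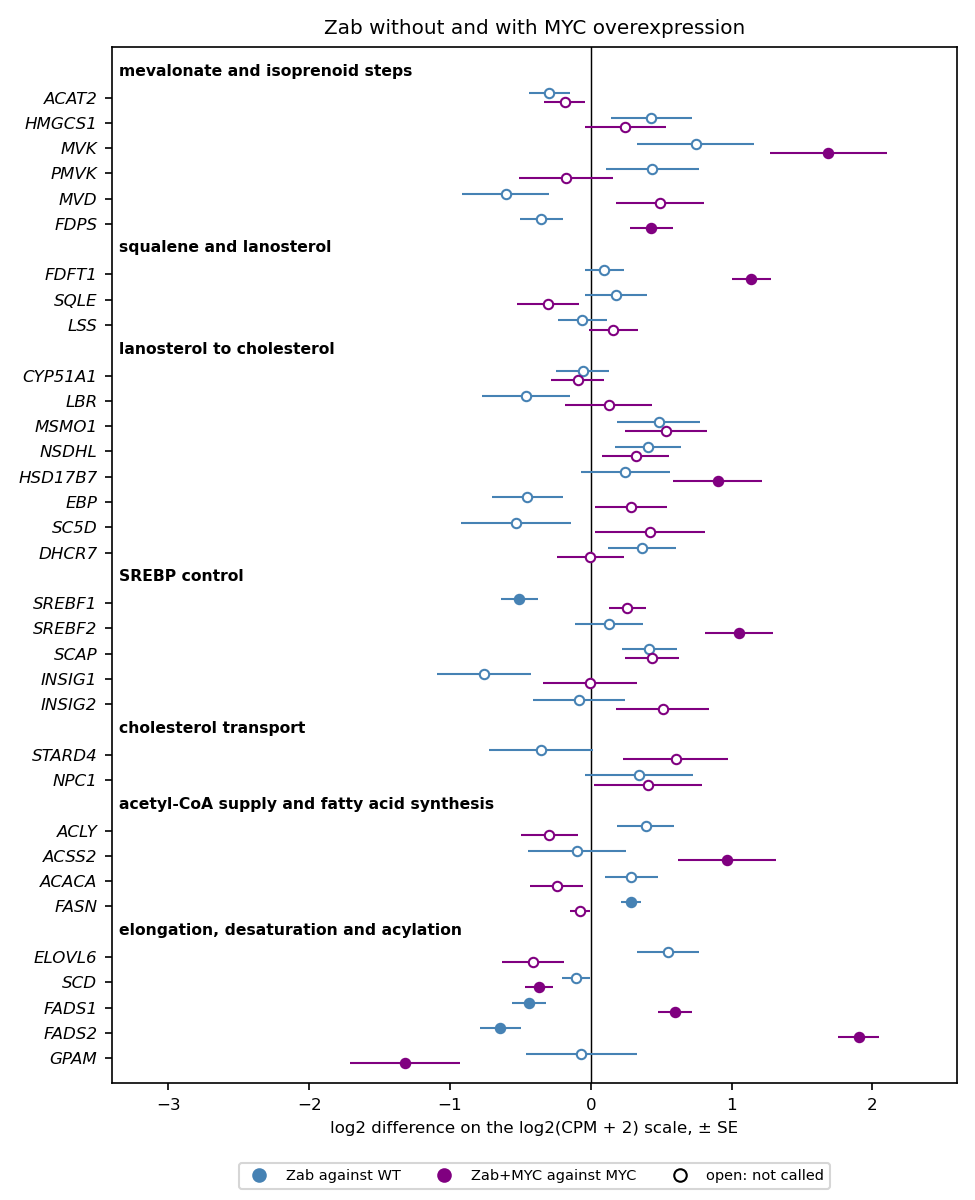
Log2 differences (x axis, log2(CPM + 2) scale, bars ± SE) of the 33 tested genes by branch for Zab against WT and for Zab+MYC against MYC; filled points are called. FADS2 lies at -0.64 without overexpressed MYC and at 1.90 with it, and FASN, at 0.29 and -0.08 here, turns to -0.255 for Zab against WT on the deposited scale.

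FDFT1, SREBF2 and FADS2 were called under all alternatives. Of the rest, FDPS kept its call under 10 of 22 alternatives (log2 0.11 to 0.49) and ACSS2 under 9 of 21 (0.70 to 1.23). FDPS ended without any 1 of the MYC and Zab+MYC libraries (log2 0.30 to 0.49), with RLE scaling and DESeq2, and on the deposited scale fell to 0.11. ACSS2 ended without any 1 of those libraries or WT replicate 1 (0.82 to 1.06), with a pseudocount of 5 CPM and on the deposited scale. Both ended with no filter, where 5 CPM in 2 libraries was required, and per transcript length. HSD17B7 ended without MYC replicate 1, MYC replicate 2 or Zab+MYC replicate 1 (0.72, 1.03 and 0.58), with no filter and on the deposited scale, MVK without MYC replicate 2 or Zab+MYC replicate 1 (1.41 for each), SCD without MYC replicate 1 (-0.37, adjusted p = 0.052), GPAM without MYC replicate 2 or Zab+MYC replicate 2 (-1.14 and -1.29), and FADS1 on the deposited scale (0.27). With the MYC libraries counted as 1 sample, 5 genes were higher and 1 lower, and FDPS, HSD17B7, ACSS2 and GPAM were no longer called. DESeq2 gave MVK, HSD17B7, ACSS2 and GPAM no adjusted p.

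Zab+MYC against Zab asks what overexpressed MYC changes where Zab is present. Higher were SCD, FASN, ELOVL6, ACLY, CYP51A1, DHCR7, SQLE and ACAT2, which were also called higher in MYC against WT, and FDPS, which was not called there (log2 -0.30, adjusted p = 0.094). None of the 33 genes was called lower, FADS2, FADS1, SREBF1, SREBF2 and FDFT1 included. That is 9 of 33 higher, where 14.3% of all genes were, and 0 lower, where 12.5% were. An unadjusted p under 0.05 in the lower direction was given by limma for 3 genes, PMVK, phosphomevalonate kinase, FADS1 and HSD17B7, with adjusted p of 0.059, 0.082 and 0.094, and edgeR and DESeq2 called 0 lower. The median was 0.15 over the 33 genes and -0.01 over all. On the deposited scale, where the median of all genes was 0.14, 12 were higher and 0 lower, with 2159 higher and 783 lower of all genes against 1385 and 1207 with TMM.

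SCD was 2.15-fold higher (log2 1.10 ± 0.099, adjusted p = 5.1e-15), from 163 and 144 CPM in Zab to 332 and 329. FASN was 1.89-fold higher (log2 0.92 ± 0.070, adjusted p = 3.5e-18). In both genes the libraries of the groups lay far apart. CYP51A1 was 1.68-fold higher (log2 0.75 ± 0.19, adjusted p = 0.0014), at 47.3 and 48.4 CPM in Zab and 88.1 and 75.8 in Zab+MYC. DHCR7, SQLE, ELOVL6, ACAT2, ACLY and FDPS were 1.61-, 1.59-, 1.57-, 1.49-, 1.47- and 1.40-fold higher, with adjusted p from 0.0017 for ACAT2 to 0.033 for ACLY.

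For the genes that fell with MYC alone, the intervals here bound the difference. FADS2 had log2 -0.17 (95% interval -0.46 to 0.12), FADS1 -0.27 (-0.51 to -0.03), SREBF2 -0.26 (-0.74 to 0.23), SREBF1 0.11 (-0.15 to 0.37) and FDFT1 0.19 (-0.09 to 0.47). ACSS2 and HSD17B7 had log2 -0.66 ± 0.35 and -0.69 ± 0.32 (adjusted p = 0.16 and 0.094), so a fall of 2-fold lies within their intervals. INSIG1, at 10.8 and 9.79 CPM in Zab and 19.9 and 17.7 in Zab+MYC, was not called (log2 0.76 ± 0.33, adjusted p = 0.081).

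SCD and FASN were called under all alternatives. DESeq2 ended the other 7 calls (adjusted p 0.077 to 0.26), and single libraries ended 6 of them: DHCR7 without any 1 of the 4 (log2 0.68 to 0.71), ACAT2 without Zab replicate 1 (0.435), FDPS, SQLE and ACLY without Zab replicate 2 (0.41, 0.57 and 0.30) or Zab+MYC replicate 1 (0.39, 0.58 and 0.35), and ELOVL6 without Zab replicate 2 or Zab+MYC replicate 2 (0.34 and 0.49), while PMVK was called lower without Zab+MYC replicate 1 (-1.25), with library totals and with replicate number as a block (-0.85 and -0.82, adjusted p = 0.048 and 0.05), and FADS1 with library totals (-0.31, adjusted p = 0.049). ACLY and ELOVL6 also ended with no filter, and FDPS and ACLY per transcript length.

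**Figure D4:**
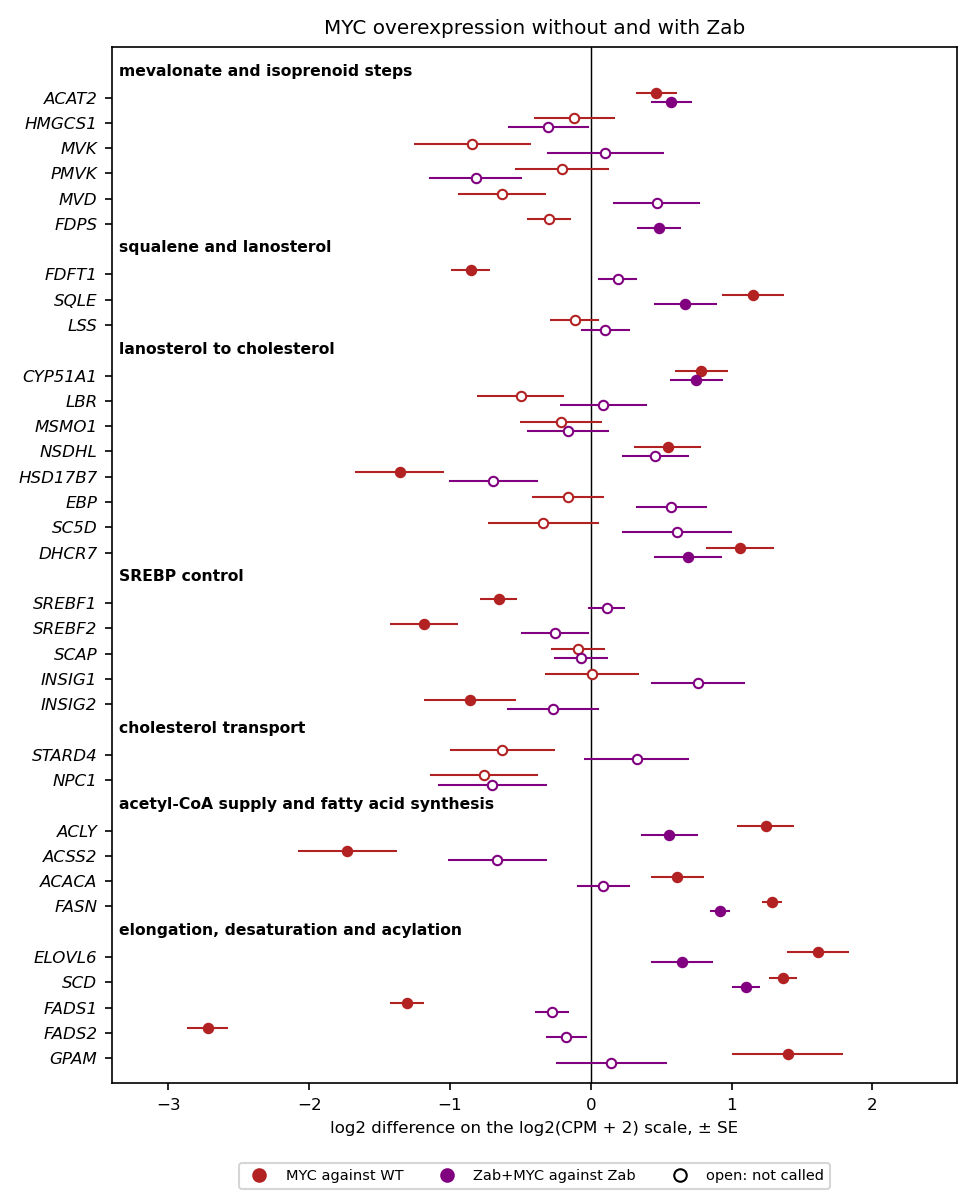
Log2 differences (x axis, log2(CPM + 2) scale, bars ± SE) of the 33 tested genes by branch for MYC against WT and for Zab+MYC against Zab; filled points are called. FASN, SCD and CYP51A1 lie to the right in both, whereas FADS2 lies at -2.72 without Zab and at -0.17 with it.

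The interaction tests whether the effect of MYC differed with and without Zab, that is Zab+MYC against Zab minus MYC against WT. It was positive for 6 of 33 genes, where 14.6% of all genes were called positive, and negative for 2, where 13.3% were called negative. The positive genes were FADS2, FDFT1, FADS1, SREBF2, FDPS and SREBF1, of which all but FDPS were lower in MYC against WT. The negative genes were ELOVL6 and FASN, whose rise with MYC was smaller where Zab was present. The interaction subtracts MYC against WT, so a high or low MYC or WT library alone would give opposite values in the 2. The opposite signs, here and in the gene lists below, are thus not independent of MYC against WT. The median was 0.22 over the 33 genes and 0.02 over all genes. On the deposited scale, where the median of all genes was 0.22, the calls were 9 positive and 1 negative, with 2061 positive and 829 negative of all genes against 1408 and 1287 with TMM.

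FADS2 had the largest interaction, log2 2.55 ± 0.20 (adjusted p = 3.1e-17): MYC went with a 6.59-fold lower level without Zab and with a 1.13-fold lower level, not called, with it. FADS1 and FDFT1 followed with 1.03 ± 0.17 and 1.04 ± 0.20 (adjusted p = 1.3e-06 and 2.1e-05). SREBF1 had 0.77 ± 0.18 (adjusted p = 0.00076), FDPS 0.78 ± 0.22 (adjusted p = 0.0042) and SREBF2 0.93 ± 0.34 (adjusted p = 0.033). SREBF1 was counted on 1 transcript in the WT and Zab+MYC libraries and on another in the MYC and Zab libraries. That split follows the groups as the interaction sets them against each other. The 2 transcripts had 4874 and 4952 bases, and SREBF1 kept its interaction call with tags taken per transcript length. Any other part of the split in the SREBF1 values was not tested. For FASN the interaction was -0.365 ± 0.099 (adjusted p = 0.0032), a rise of 2.44-fold without Zab against 1.89-fold with it. For ELOVL6 it was -0.96 ± 0.31 (adjusted p = 0.014). SCD (-0.27, 95% interval -0.55 to 0.01), CYP51A1 (-0.03, interval -0.56 to 0.49) and DHCR7 (-0.37, interval -1.04 to 0.31) were not called.

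The amount of each factor moved with these values. MYC was at 707 and 705 CPM in Zab+MYC against 1237 and 1290 in MYC, and at 230 and 194 in Zab against 72.5 and 94.8 in WT, so that its log2 rise was 1.73 with Zab and 3.90 without. ADAR was at 1068 and 1019 CPM in Zab+MYC against 6003 and 6198 in Zab. The introduced and the cells' own transcripts are not separated in these values, and the part of the factor levels in the interaction was not tested.

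FADS2, FADS1 and FDFT1 were called in the interaction under all alternatives. SREBF2 ended without any 1 library other than WT replicate 1 (log2 0.595 to 0.91), ELOVL6 without MYC replicate 2, Zab replicate 1 or Zab+MYC replicate 1 (-0.85, -0.68 and -0.83), FASN on the deposited scale (-0.15), and FDPS, SREBF1, SREBF2 and ELOVL6 with DESeq2 (adjusted p = 0.11, 0.055, 0.19 and 0.14), while ACLY was called without WT replicate 2, Zab replicate 2 or Zab+MYC replicate 1 (-0.91, -0.97 and -0.93) and where 5 CPM in 2 libraries was required (-0.74), and ACACA without Zab+MYC replicate 1 (-0.895). SREBF2 also ended with no filter and with that requirement, and FDPS, SREBF2 and ELOVL6 where the libraries of WT and of MYC were each summed. MVD, with log2 1.10 and adjusted p = 0.051, was called positive with a pseudocount of 5 CPM, library totals, edgeR, replicate number as a block and the deposited scale (log2 0.97 to 1.29, adjusted p 0.017 to 0.047), and without Zab replicate 1 or Zab+MYC replicate 1 (1.46 and 1.30). EBP and ACSS2 were called positive on the deposited scale (0.93 and 1.30).

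Neighbouring pathways were read from 5 further gene lists, to be set against all genes, of which 27.8% were higher and 30.4% lower in MYC against WT. In fatty acid oxidation, the breakdown of fatty acids in mitochondria, 9 of 17 tested genes (52.9%) were lower and 2 (11.8%) higher in MYC against WT, with a median log2 of -0.37 against -0.04 over all genes. ACAA2, the thiolase of the last step, stood at 219 and 272 CPM in WT, 61.2 and 67.4 with MYC, 147 and 155 with Zab, and 93.9 and 100.65 with both. It was 3.71-fold lower in MYC (log2 -1.89 ± 0.14, adjusted p = 2.6e-20). CPT2, the inner-membrane carnitine acyltransferase, and DECR1, needed for unsaturated chains, were 3.79-fold and 3.52-fold lower (adjusted p = 1.8e-06 and 1.2e-06). The interaction was positive for 6 of the 17 genes (35.3%, against 14.6% of all genes) and negative for 0 (against 13.3%), with a median of 0.43 against 0.02 over all genes, and ACAA2 had log2 1.27 ± 0.19 (adjusted p = 2.2e-07). No oxidation gene gave an unadjusted p under 0.05 with a negative interaction by limma, and edgeR and DESeq2 called 0 negative.

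Fatty acid supply, elongation and glycerolipid synthesis had 8 of 24 genes higher and 6 lower in MYC, and these shares, 33.3% and 25%, lie near the 27.8% and 30.4% over all genes. SCD5, a desaturase of the same reaction as SCD, went opposite to it, at 39.1 and 47.2 CPM in WT, 9.81 and 3.97 with MYC, 25.1 and 26.3 with Zab, and 16.5 and 26.9 with both. It was 5.36-fold lower in MYC (log2 -2.42 ± 0.32, adjusted p = 1e-09), with an interaction of 2.16 ± 0.46 (adjusted p = 0.00014). TECR, the last enzyme of each elongation round, was 2.11-fold lower, while MCAT, of mitochondrial fatty acid synthesis, was 2.70-fold higher (adjusted p = 1.2e-06 and 3e-06). In this list the interaction was positive for 6 of 24 genes and negative for 4, 25% and 16.7% against 14.6% and 13.3% of all genes. TECR had log2 1.375 ± 0.27 and MCAT -1.276 ± 0.37 (adjusted p = 3.7e-05 and 0.006).

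The isoprenoid and quinone branches, which leave the pathway before squalene, had 5 of 13 genes higher and 2 lower in MYC, 38.5% and 15.4% against 27.8% and 30.4% over all genes. PDSS1, which makes the side chain of coenzyme Q, stood at 12.0 and 14.3 CPM in WT, 78.0 and 76.5 with MYC, 30.8 and 42.8 with Zab, and 53.5 and 76.5 with both. It was 5.25-fold higher in MYC (log2 2.39 ± 0.24, adjusted p = 2.9e-14) and 2.54-fold higher in Zab (adjusted p = 5.3e-06). In this list the interaction was positive for 1 of 13 genes and negative for 3, 7.69% and 23.1% against 14.6% and 13.3% of all genes. PDSS1 had log2 -1.61 ± 0.33 (adjusted p = 0.00011). NUS1, of the same list, was 4.09-fold higher in MYC (adjusted p = 1e-05), with an interaction of -2.155 ± 0.56 (adjusted p = 0.002). Of 14 genes of lipoprotein uptake, esterification and efflux, 5 were higher and 3 lower in MYC, 35.7% and 21.4% against the same shares over all genes. TMEM97, a sterol-responsive membrane protein that binds NPC1, was 2.80-fold higher (adjusted p = 2.2e-18), and NPC2, the lysosomal cholesterol carrier that works with NPC1, was 4.12-fold lower, from 895 and 921 CPM to 216 and 221 (adjusted p = 7.9e-38). The interaction was positive for 1 of these 14 genes and negative for 2 (7.14% and 14.3%), with TMEM97 at log2 -1.06 ± 0.17 (adjusted p = 5e-07). Of 12 genes of SREBP processing and sterol-regulated degradation, 2 were higher and 4 lower, 16.7% and 33.3%, the lower share near the 30.4% over all genes. Among the lower genes were MBTPS1, the site-1 protease that cleaves SREBPs, 2.07-fold (adjusted p = 1.3e-05), and ERLIN2, 2.39-fold (adjusted p = 0.00012). The interaction was positive for 3 of these 12 genes and negative for 1 (25% and 8.33%), with ERLIN2 at log2 1.05 ± 0.40 (adjusted p = 0.042).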

How the data were processed

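RNA-seq of U2OS cells gave 8 libraries in 4 genotypes, grouped by the genotype in the labels. Per the labels' protocols, Trizol was used for RNA and a kit by Abclonal for the libraries. Trim Galore 0.6.6, STAR and HOMER 4.11.1 are named, and the builds hg19 and dm6 listed with no role, per the submitters' processing notes. The authors deposited 1 table per library of exon signal for 19414 genes, counted by HOMER's analyzeRepeats over hg19 RefSeq coding genes with 1 transcript kept per symbol, per the file headers. For 24 of the 35 genes that transcript differed between libraries, and for SREBF1 it changed with the group. How the signal was scaled, the STAR version and the use of strand are not given in the sources used here. In each library 100% of the low values were whole multiples of 1 step (tolerance 0.1 step), and tags were recovered by taking 2 steps as 1 tag, an assumption. Exon tags per library, 686991.5 to 1326166.5, limit the precision for low genes.

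Genes kept by edgeR's filterByExpr (9673) were scaled by TMM, taken to log2(CPM + 2) and tested in 1 limma trend fit to all 8 libraries with 1 mean per group (4 residual degrees of freedom, prior degrees of freedom 67.2), two-sided, with Benjamini-Hochberg adjustment over all genes. CPM are mean ± SD over 2 libraries where not given singly, log2 differences are ± SE, and intervals are 95%. The genes, their branches and the other lists were chosen with earlier results of these data known. All 35 genes are named, and from the other lists genes called with a difference of at least 2-fold, up to 3 in each direction of a comparison. Alternatives were pseudocounts of 1 and 5 CPM, RLE scaling, library totals, the deposited scale, no filter, 5 CPM in 2 libraries, edgeR and DESeq2 on recovered tags, only the groups compared, replicate number as a block, tags per transcript length, and each library left out. Where that leaves a group with 1 library, it is assumed to vary like the other groups. Summing the MYC libraries, or those of WT and of MYC, as 1 sample was chosen after seeing the data. The code was tested on simulated data. Promoters are RefSeq's on GRCh38.p14, the most upstream start where a gene has several, and gene coordinates are hg19 as deposited. Tables were made in Python 3.11.15 (pandas 2.3.3, numpy 2.4.6), figures with matplotlib 3.10.9, and fits in R 4.3.3 with DESeq2 1.42.0, edgeR 4.0.16 and limma 3.58.1.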

Additional observations from a re-analysis of the deposited data

Results flagged for a closer look

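For 8 of the 33 genes the effect of MYC differed with and without Zab by the test of the difference itself, as log2 of the effect with Zab minus that without. It was positive for 6 (18.2%) and negative for 2 (6.06%), against 14.6% and 13.3% of all genes, so the positive share lies near that over all genes. SREBF2 kept its call under 9 of 21 alternatives, ELOVL6 under 16 and FDPS under 19. Where MYC alone went with a lower level, the difference was 2.546 for FADS2, 1.043 for FDFT1, 1.034 for FADS1, 0.928 for SREBF2 and 0.767 for SREBF1. Since the difference subtracts MYC against WT, a low MYC or high WT library alone would give both a lower level and a positive value. FDPS had 0.781, and was called in neither direction in MYC against WT. The rise with MYC was smaller with Zab for ELOVL6, at -0.962, and for FASN, at -0.365. MYC itself rose less with Zab, from 230 and 194 to 707 and 705 CPM, than without, from 72.5 and 94.8 to 1237 and 1290 CPM, and the part of this in the 8 differences was not tested.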

How the results depend on the processing

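Counts below are genes called higher, then lower. In Zab against WT all tested genes gave 251 and 4767 on the deposited scale, 495 and 391 with DESeq2, and 754 and 611 with the WT and the MYC libraries each summed, with 971 to 1239 and 694 to 1104 over single libraries left out. The pathway genes gave 0 and 15 on the deposited scale, 0 and 1 with DESeq2, 2 higher with replicate number as a block, and 1 to 3 and 2 to 3 with a library left out. On the deposited scale FDFT1 turned to -0.441 and FASN to -0.255. In Zab+MYC against MYC all genes gave 575 and 2947 on the deposited scale, 336 and 373 with DESeq2, 587 and 423 with the MYC libraries summed, 554 and 452 with WT summed as well, and 628 to 1211 and 460 to 1073 with a library left out. The pathway genes gave 4 and 8 on the deposited scale, 4 and 1 with DESeq2 (which gave MVK, HSD17B7, ACSS2 and GPAM no adjusted p, so that FDPS alone of the 5 genes missing from its count was tested and not called), 5 higher with no filter, 5 and 1 with either summing, and 4 to 8 and 1 to 2 with a library left out. In Zab+MYC against Zab all genes gave 2159 and 783 on the deposited scale, 511 and 414 with DESeq2, and 930 to 1464 and 782 to 1197 with a library left out. The pathway genes gave 2 higher with DESeq2, 2 lower with library totals, 1 lower with the block, and 4 to 9 and 0 to 1 with a library left out. In the interaction all genes gave 829 negative on the deposited scale, 500 and 641 with DESeq2, and 724 positive with WT and MYC summed. The pathway genes gave 1 negative on the deposited scale and with WT and MYC summed, 3 and 1 with DESeq2, and 1 to 3 negative with a library left out. In MYC against WT 1897 of all genes were lower with WT and MYC summed. The cause of these moves was not tested, other than that summing and leaving out leave fewer samples.

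The differences between replicates 1 and 2 correlated between groups with r of -0.023 to 0.007, and the block moved no other count by over 1.5 times. These differences were mostly counting noise over genes with at least 10 tags. An r near 0 therefore cannot decide whether equal replicate numbers mark a shared batch. No value for the interaction was computed from only the groups compared, since it needs all 4. Depth limits the low genes most: IDI1 had 4 to 8.5 tags per library and TM7SF2 0 to 4.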
